A study of Bos taurus with 16 samples.

Results

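The somatic linker histone genes H1FX, HIST1H1A, HIST1H1C (H1-2) and HIST1H1D (H1-3) were followed in bovine follicular cells. They were chosen by family, from their names in the count table, and are 4 of its 36824 gene entries. HIST1H1B and HIST1H1E (H1-12 in the reference used for names) are also somatic forms but were not among the 4, and are given as related genes, as is the oocyte form H1FOO (H1-8). RNA came from cumulus cells, which surround the oocyte, and from granulosa cells, which form the lining of the follicle. Follicles came from the ovary bearing the corpus luteum (ipsilateral) or from the opposite ovary (contralateral), which gave 4 groups of 4 libraries. Each library is a pool of 3 animals, and the labels name no genotype, strain, age or added agent. Whether the same animals went into several groups is not stated, and the spread behind each p value is that between pools.

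Linker histones bind the nucleosome where DNA enters and leaves it and help chromatin fold more tightly. The HIST1 forms lie in the large histone gene cluster, are made mainly during DNA replication, and their mRNAs usually end in a stem-loop without a poly(A) tail. H1FX lies outside that cluster, is made independently of replication and carries a poly(A) tail. H1FOO takes the place of somatic forms in the oocyte. The labels give the molecule as polyA RNA, so the values of HIST1 forms are of RNA captured that way, and how much of their mRNA escaped capture was not tested.

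Libraries had total counts of 10.1 to 21.9 M (mega). Levels are given in CPM, counts per M total counts after TMM scaling between libraries. Where a gene had no counts, its level could still be as high as 3 counts, or 0.135 to 0.317 CPM depending on the library, and this limit covers counting error only. In bulk RNA, fewer cells of a type and less RNA per cell cannot be told apart. Of the marker lists, 2 of 15 oocyte symbols (BCL2L10 and H1FOO) were matched by name, and their sum was 204 CPM in contralateral cumulus library 4, 18.6 CPM in contralateral cumulus library 2 and 10.8 CPM in contralateral granulosa library 3. It ran from 0 to 1.38 CPM in the other 13 libraries. Of 7 cilium symbols 3 were matched, and they did not move together. HYDIN ran from 54.1 to 90.7 CPM in cumulus and from 0.324 to 8.73 CPM in granulosa libraries. CFAP44 and WDR63 stood at 32.1 and 19.6 CPM in contralateral granulosa library 3, and reached at most 4.65 and 1.17 CPM in any other library. The sum of the 3 was 59.0 to 92.5 CPM in cumulus libraries, 60.1 CPM in that granulosa library and 0.898 to 9.18 CPM in the other granulosa libraries. PF4, the platelet factor 4 gene, was the only match of the 8 symbols in the leukocyte list. It was 0 in 6 of 8 cumulus libraries and ran from 0.449 to 3.91 CPM in granulosa libraries. MUC16, 1 of 6 epithelial symbols, was 0 in 7 of 8 cumulus libraries, where its highest value was 2.09 CPM. Among granulosa libraries it reached 44.3 CPM in ipsilateral library 3, 24.7 CPM in contralateral library 3 and 9.98 CPM in ipsilateral library 1. It ran from 0 to 0.739 CPM in the remaining granulosa libraries. No symbol was matched for the cumulus, granulosa, theca, endothelial and red blood cell lists, so the labelled cell types were not checked with those markers. The part of these markers in the linker histone results was not tested, beyond fits that left libraries out. Some left out both cumulus library 4 and granulosa library 3 of the contralateral side. Contralateral cumulus library 2, with its 18.6 CPM of oocyte transcripts, stayed in those fits and was left out only alone.

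The first comparison was of cumulus with granulosa cells. H1FX was higher in cumulus cells, by 2.31-fold, and HIST1H1C was higher in granulosa cells, by 2.61-fold. HIST1H1D averaged 9.45 ± 3.06 CPM in the 8 cumulus and 9.50 ± 3.31 CPM in the 8 granulosa libraries (mean ± SD), and HIST1H1A was low and uneven in both. By edgeR's quasi-likelihood test with Benjamini-Hochberg adjustment over all 18038 entries tested, 2 of the 4 genes were called at an adjusted p under 0.05, where 60.2% of all entries were called. For entries called higher in cumulus cells the share was 29.9%, and for those called lower 30.3%. No member separated the 8 cumulus from the 8 granulosa libraries without overlap, which 28% of entries did. The median log2 fold change was 0.60 over the 4 genes and 0.03 over all entries tested. The 4 values lay far apart, at 1.21 for H1FX, 1.17 for HIST1H1A, 0.02 for HIST1H1D and -1.39 for HIST1H1C. That of HIST1H1A, which enters the median, was 0.16 without contralateral cumulus library 4. With cumulus library 4 and granulosa library 3 of the contralateral side left out, the same 2 members were called, and HIST1H1A was not tested. In that fit 10604 of all entries were called, against 10858 with all libraries.

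H1FX, a divergent linker histone encoded outside the histone cluster, stood at 2.03, 4.95, 10.8 and 5.60 CPM in ipsilateral and at 6.06, 3.94, 16.01 and 10.96 CPM in contralateral cumulus libraries. It stood at 6.16, 5.90, 2.18 and 4.99 CPM in ipsilateral granulosa libraries, and at 2.01, 1.64, 2.63 and 2.13 CPM in contralateral ones. The contralateral granulosa libraries were uniformly low, whereas the cumulus libraries spread 7.89-fold from lowest to highest and overlapped the granulosa range. Mean and SD were 7.54 ± 4.63 CPM for cumulus and 3.45 ± 1.89 CPM for granulosa cells (n = 8 each). The log2 fold change of 1.21 ± 0.34 SE had a 95% interval from 0.48 to 1.94 and an edgeR adjusted p of 0.00637.

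HIST1H1C, one of the cluster's widely expressed forms, went the other way. Its ipsilateral cumulus libraries held 1.69, 0.917, 1.61 and 1.22 CPM and its contralateral ones 0.478, 0.876, 0.454 and 2.44 CPM. Ipsilateral granulosa libraries held 5.90, 3.67, 1.92 and 4.63 CPM, and contralateral ones 1.79, 2.06, 2.87 and 3.11 CPM. Contralateral cumulus library 4, which carried the most oocyte RNA, was the only cumulus library within the granulosa range. Granulosa libraries averaged 3.25 ± 1.44 CPM and cumulus libraries 1.21 ± 0.678 CPM (mean ± SD, n = 8 each). These levels rest on 7 to 43 counts per cumulus library and 17 to 103 per granulosa library. The log2 fold change was -1.39 ± 0.36 SE (95% interval from -2.16 to -0.61, edgeR adjusted p = 0.00361), and -1.79 without contralateral cumulus library 4. The entry ENSBTAG00000011677 had counts within 2% or 2 counts of HIST1H1C in every library. Whether these 2 entries share reads was not tested.

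HIST1H1D, another cluster form, held 7.19, 10.6, 13.5 and 10.2 CPM in ipsilateral and 8.02, 9.74, 3.89 and 12.4 CPM in contralateral cumulus libraries. Its granulosa values were 13.4, 14.2, 9.56 and 8.64 CPM on the ipsilateral and 7.71, 5.93, 5.15 and 11.5 CPM on the contralateral side. All 4 groups overlapped. The log2 fold change between cell types was 0.02 ± 0.23 SE (edgeR adjusted p = 0.949), with a 95% interval from -0.48 to 0.51, which reaches from 1.39-fold higher in granulosa cells to 1.43-fold higher in cumulus cells.

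**Figure D1:**
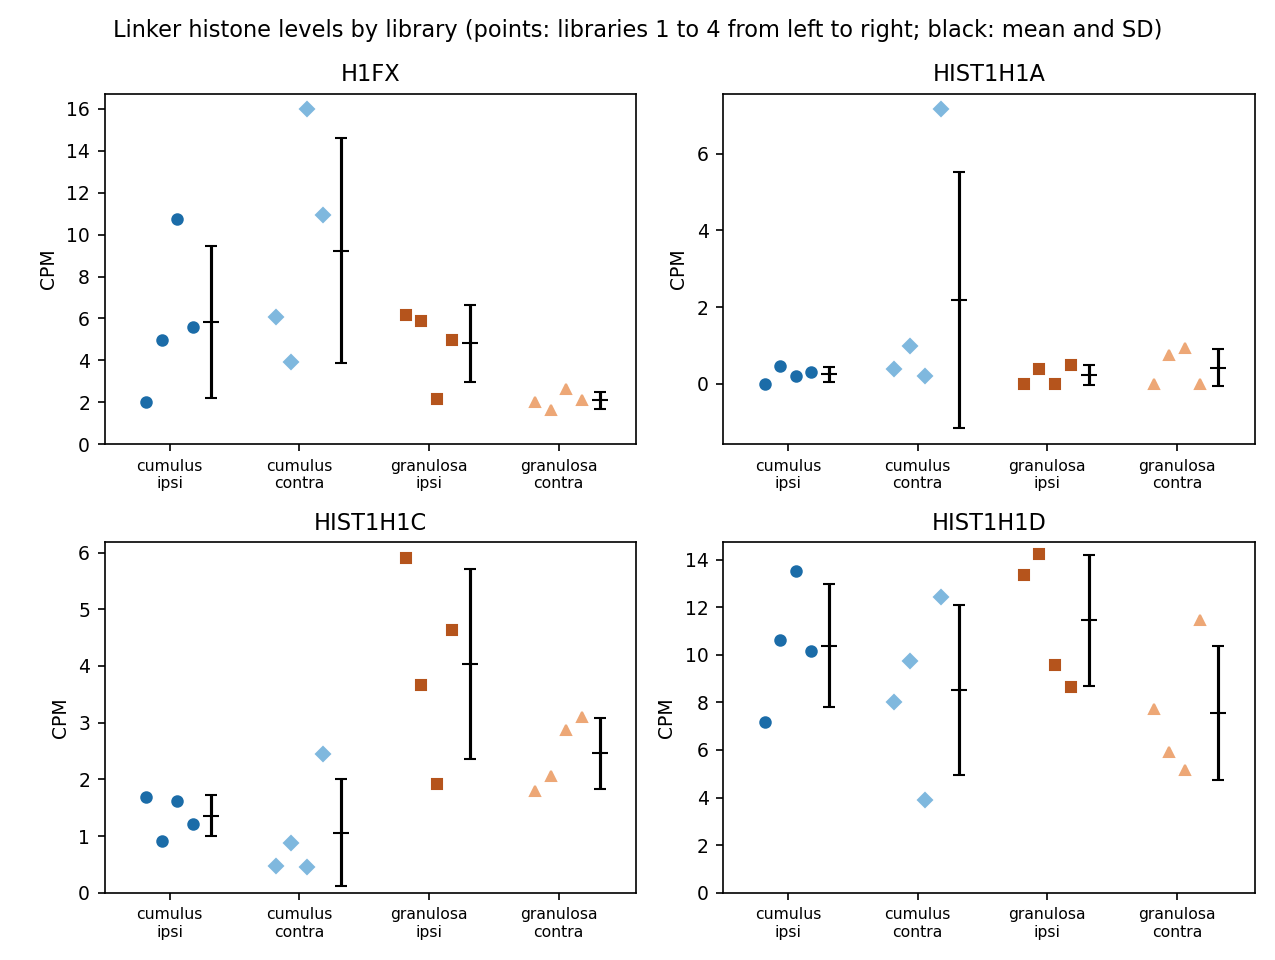
Level in CPM (vertical axes, each gene on its own scale) of 4 somatic linker histone genes in the 16 libraries, by cell type and side. Each point is 1 library and black bars give the mean and SD of 4 libraries. HIST1H1C is highest in granulosa cells, H1FX is lowest in contralateral granulosa cells, and 1 contralateral cumulus library stands far above the others for HIST1H1A.

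HIST1H1A, a cluster form with narrow expression in most somatic tissues, was low, with 10 or more counts in 5 of 16 libraries. It had 0, 5, 3 and 5 counts in ipsilateral cumulus libraries and 7, 20, 3 and 126 in contralateral ones. Granulosa libraries had 0, 6, 0 and 11 counts on the ipsilateral side and 0, 14, 19 and 0 on the contralateral side. Contralateral cumulus library 4 thus held 7.15 CPM (95% exact Poisson interval from 5.96 to 8.52, counting error only), and no other library exceeded 0.974 CPM. In that library the oocyte transcripts BCL2L10 and H1FOO reached 112 and 92.6 CPM. Contralateral cumulus library 2 and contralateral granulosa library 3, next in HIST1H1A at 0.974 and 0.941 CPM, were next in BCL2L10 as well, at 9.64 and 5.55 CPM, and in H1FOO, at 8.96 and 5.25 CPM. Contralateral granulosa library 2, with 14 counts of HIST1H1A (0.741 CPM), had 0 counts of both oocyte transcripts.

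The log2 fold change of HIST1H1A between cell types was 1.17 ± 0.98 SE (edgeR adjusted p = 0.317), with a 95% interval from -0.91 to 3.25. Without contralateral cumulus library 4 it was 0.16. BCL2L10, a BCL2-family gene expressed in oocytes, was most like HIST1H1A over the 16 libraries among named entries that passed the filter on low counts. Pearson's r of the log2 CPM was 0.81, and 0.51 without the 2 libraries farthest from the median of BCL2L10, so the likeness rests largely on those libraries. The next were CCNI2, a cyclin-like gene (r = 0.78, and 0.45 without its 2 farthest libraries), and SEPT8 (SEPTIN8), a septin (0.74 and 0.26). H1FOO, which did not pass that filter and so was not ranked, had r = 0.77 with HIST1H1A.

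**Figure D2:**
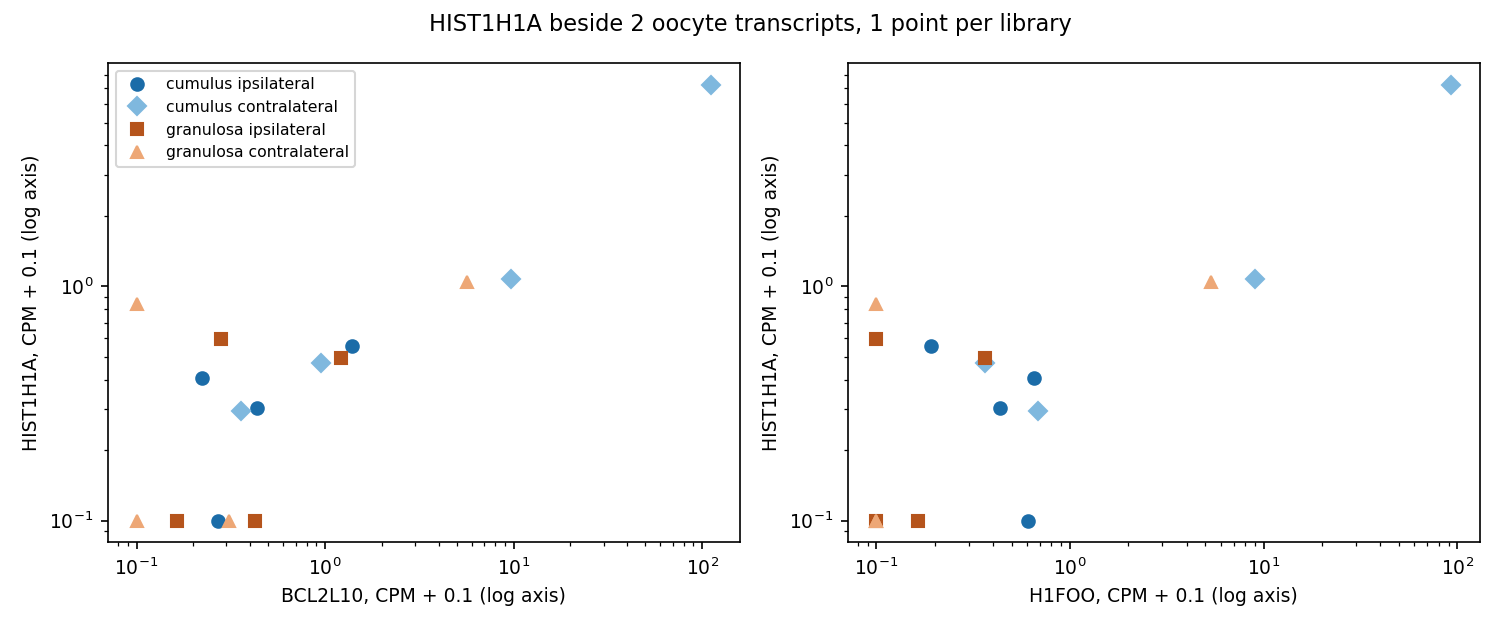
HIST1H1A against the oocyte transcripts BCL2L10 (left) and H1FOO (right), in CPM with 0.1 added on log axes, 1 point per library with colour and shape for the group. Contralateral cumulus library 4 stands apart at the upper right with 7.15 CPM of HIST1H1A, and granulosa libraries with next to no oocyte RNA lie anywhere from 0 to 0.741 CPM.

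The cell type difference was then read on each side, in the fit of all 16 libraries. On the contralateral side H1FX was 4.37-fold higher in cumulus cells (log2 fold change 2.13 ± 0.50 SE, edgeR adjusted p = 0.00239). All 4 contralateral cumulus libraries lay above all 4 contralateral granulosa libraries, as did 22.7% of all entries tested. HIST1H1C had -1.21 ± 0.51 SE there and did not pass by edgeR (adjusted p = 0.0632). It passed by DESeq2 (adjusted p = 0.0410), by limma-voom (0.0255) and by edgeR without contralateral cumulus library 4 (-2.01, adjusted p = 0.00297).

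On the ipsilateral side HIST1H1C was 2.95-fold higher in granulosa cells (log2 fold change -1.56 ± 0.52 SE, edgeR adjusted p = 0.0210), and the 4 ipsilateral libraries of each cell type did not overlap. Of all entries tested, 21.6% had all cumulus below all granulosa libraries on that side. This call was lost without ipsilateral cumulus library 2 or 4 or ipsilateral granulosa library 1, each left out alone (edgeR adjusted p from 0.0554 to 0.0660). H1FX had 0.28 ± 0.48 SE (edgeR adjusted p = 0.658) with a 95% interval from -0.73 to 1.30. In all, 1 of the 4 genes was called on the ipsilateral and 1 on the contralateral side, where 45.5% and 47.6% of entries were called. These counts do not show that the sides differ, which was tested by the difference of side effects.

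The question named in the title of the series, closeness to the corpus luteum, is that of the comparison between sides. In cumulus cells none of the 3 members that passed the filter on low counts was called, with 0% of 16323 entries called by edgeR's quasi-likelihood test. At an unadjusted p under 0.05 there were 1791 entries (11% of those tested) and 0 members, and DESeq2 called 120 entries and limma-voom 0, again with 0 members. H1FX had a log2 fold change, ipsilateral minus contralateral, of -0.65 ± 0.51 SE (95% interval from -1.79 to 0.48), HIST1H1C 0.35 ± 0.56 and HIST1H1D 0.27 ± 0.32, with edgeR adjusted p values of 0.645, 0.851 and 0.778. HIST1H1C had 1.15 without contralateral library 4, still not past the threshold. The groups overlapped for every member.

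In granulosa cells the 3 tested members all had ipsilateral values above contralateral ones on average, and none was called. H1FX stood at 4.81 ± 1.82 against 2.10 ± 0.408 CPM (SD, n = 4 each). HIST1H1C stood at 4.03 ± 1.68 against 2.46 ± 0.630 CPM and HIST1H1D at 11.4 ± 2.76 against 7.56 ± 2.81 CPM. Of H1FX, 3 of 4 ipsilateral libraries lay above every contralateral library, and ipsilateral library 3 lay among them. The groups overlapped for the other members too.

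By edgeR's quasi-likelihood test 0% of 16411 entries were called in granulosa cells, the smallest adjusted p being 0.770. Without adjustment 579 entries, 3.53% of those tested, had a p under 0.05, and DESeq2 called 1 entry and limma-voom 0. Of the members, 1 was among those 579, H1FX with a log2 fold change of 1.19 ± 0.40 SE (95% interval from 0.31 to 2.07). Over the 3 members the median log2 fold change was 0.71, where it was 0.01 over all entries and 51% of entries lay above 0. Leaving out each library in turn gave log2 fold changes from 1.04 to 1.43 for H1FX, with no call. HIST1H1C had 0.71 ± 0.41 SE and HIST1H1D 0.60 ± 0.30, with 95% intervals that hold 0.

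HIST1H1A did not pass the filter within either cell type. Its mean log2 CPM was lower on the ipsilateral side by a difference of -1.74 in cumulus and -0.38 in granulosa cells, with two-sided exact permutation p values of 0.200 and 0.657 (n = 4 each, smallest possible p 0.0286).

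The last comparison was of the side effects themselves, cumulus minus granulosa. None of the 4 members was called, with 0% of 18038 entries called by edgeR's quasi-likelihood test, 1358 (7.53%) at an unadjusted p under 0.05, 1 called by DESeq2 and 0 by limma-voom. H1FX had a difference of -1.84 ± 0.69 SE on the log2 scale (95% interval from -3.30 to -0.39, edgeR adjusted p = 0.653). It was the only member among the 1358. All 4 members had a difference below 0, where 48% of entries lay above 0. HIST1H1A had -2.21 ± 1.96 SE, and -0.16 without contralateral cumulus library 4. HIST1H1C had -0.35 ± 0.72 and HIST1H1D -0.31 ± 0.47, and both turned above 0 without cumulus library 4 and granulosa library 3 of the contralateral side (0.37 and 0.07). HIST1H1C also did so without that cumulus library alone (0.45) and by limma-voom (0.06).

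**Figure D3:**
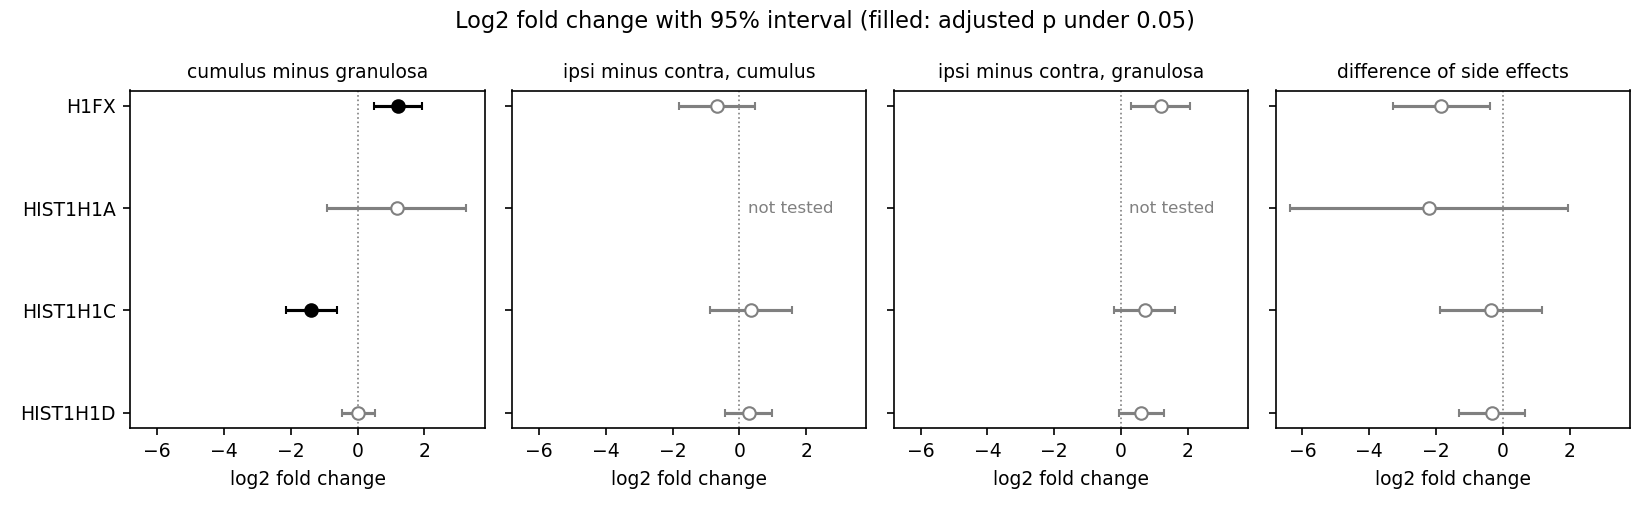
Log2 fold change (horizontal axes, shared scale) with its 95% interval for 4 genes (rows) in 4 comparisons (panels), filled where the edgeR adjusted p is under 0.05. The filled points are H1FX and HIST1H1C between cell types. In granulosa cells the 3 tested genes lie above 0 on the ipsilateral minus contralateral scale, and HIST1H1A was not tested within a cell type.

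The members also differed in how steady they were within groups. The biological coefficient of variation estimated by edgeR in the fit of all libraries was 33.7% for HIST1H1D, 47.8% for H1FX, 48.1% for HIST1H1C and 133% for HIST1H1A, where the median over all entries was 27.4%. H1FX and HIST1H1C thus varied more than 74.7% and 74.9% of entries, and HIST1H1A more than 98.6%, though low counts make such estimates less certain. Their average levels exceeded those of only 35.0% (H1FX), 22.9% (HIST1H1C) and 9.04% (HIST1H1A) of entries. Their variation was not compared with that of entries of like level. Pearson's r of the log2 CPM with the log2 total counts was 0.43 for HIST1H1A, 0.04 for H1FX, 0.21 for HIST1H1C and -0.09 for HIST1H1D (n = 16).

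The spread of H1FX was shared with other genes. The named entry most like it of 808 compared was FAM173A (ANTKMT), a mitochondrial lysine methyltransferase gene, with r = 0.94 over the 16 libraries and 0.92 without its 2 farthest libraries. After group means were removed r was 0.90, and it was 0.94 in the 8 cumulus and 0.92 in the 8 granulosa libraries. FAM173A was lowest among cumulus libraries in ipsilateral library 1 (12.3 CPM) and highest in contralateral library 3 (69.5 CPM), the libraries where H1FX was lowest and highest. NSMCE3, a subunit gene of the SMC5/6 complex, followed with r = 0.89, and LOC101907255 (ATE1OS) with 0.89. H2AFX (H2AX), the histone variant marked at DNA breaks, was looked at outside the rule for most alike entries. It had r = 0.79 with H1FX, and 0.78 after group means were removed. Values of different genes in the same library share its depth and preparation, and the correlations are a description.

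HIST1H1D was followed almost count for count by another histone entry. LOC518961 (H4C19), a histone H4 gene, had r = 0.98 with it over 16 libraries and 0.99 after group means were removed. HIST1H1D had 0.742 to 0.966 counts for each count of LOC518961. In the reference used for names (RefSeq, assembly ARS-UCD2.0), the 2 genes lie on the same chromosome with 1 coding gene between them. Whether their entries share reads was not tested, and the HIST1H1D level is uncertain to that extent. The next named entries were far less alike, C10H15orf41 (CDIN1) with r = 0.61 and FOPNL (CEP20), a centriolar gene, with 0.60.

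**Figure D4:**
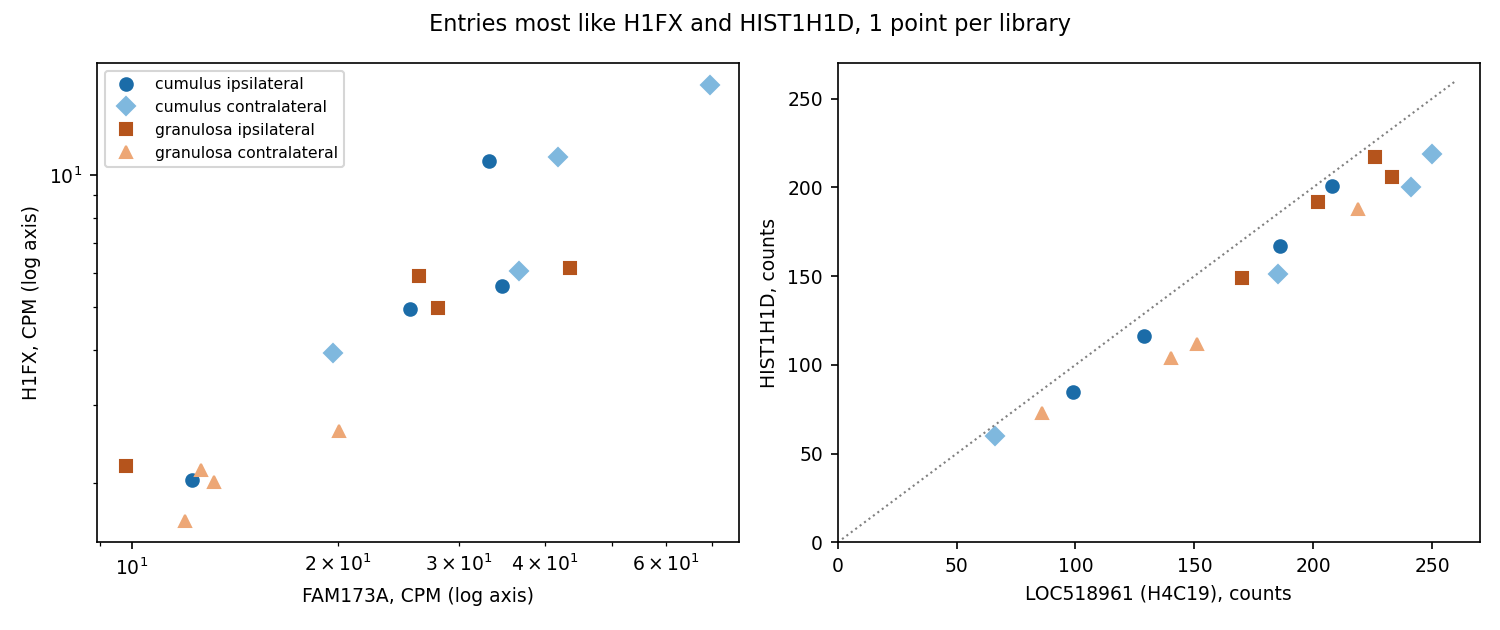
Left, H1FX against FAM173A in CPM on log axes. Right, counts of HIST1H1D against counts of LOC518961 (H4C19), with a dotted line of equal counts. Each point is 1 of 16 libraries, and the right-hand points lie just under the line, at 0.742 to 0.966 counts of HIST1H1D per count of LOC518961.

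Most like HIST1H1C were BRD3OS (r = 0.90), the mechanosensitive channel gene PIEZO2 (0.86) and the core histone gene HIST1H2AC (H2AC6, 0.85), all 3 higher in granulosa cells. After group means were removed r was 0.80, 0.67 and 0.53.

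The members did not vary as 1 block. After group means were removed, r between H1FX and HIST1H1C was 0.24, between H1FX and HIST1H1D 0.09, and between HIST1H1C and HIST1H1D 0.49 (n = 16). In the 8 granulosa libraries, r was 0.88 between H1FX and HIST1H1C, 0.63 between H1FX and HIST1H1D, and 0.53 between HIST1H1C and HIST1H1D. In the 8 cumulus libraries these pairs had -0.16, -0.12 and 0.67.

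Of the other linker histone entries, 6 were found and 2 tested. HIST1H1E averaged 3.56 ± 1.23 CPM over cumulus and 2.90 ± 1.27 CPM over granulosa libraries (mean ± SD, n = 8 each), and its log2 fold change of 0.33 ± 0.27 SE did not pass (edgeR adjusted p = 0.302). HIST1H1B stood at 0.559 ± 0.333 and 0.631 ± 0.589 CPM (-0.10 ± 0.54, edgeR adjusted p = 0.890). HIST1H1E was highest of all libraries in ipsilateral granulosa library 4, at 5.71 CPM. The testis form H1FNT had counts in 2 libraries, 34 in contralateral cumulus library 4 and 7 in contralateral granulosa library 3, and HILS1, also a spermatid gene, had 0 in all 16. LOC104975686 (H1-6) averaged 0.0299 CPM over cumulus and 0.0198 CPM over granulosa libraries, below the counting limit.

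The core histones that linker histones pack were set beside them from the other lists. Of 50 replication-dependent core histone entries 24 were tested between cell types, of which 5 were called higher in cumulus cells, 6 were called lower and 13 did not pass, where 29.9% of all entries were called higher and 30.3% lower (median log2 fold change 0.06, against 0.03 over all entries). HIST2H2AA4 and HIST1H2AK, 2 of those higher in cumulus cells, carry the same counts. Those with the smallest p were all higher in granulosa cells, namely HIST1H2BB (3.76-fold), LOC528329 (H4C13, 3.22-fold), HIST2H2BE (H2BC21, 1.56-fold) and HIST1H2AC (2.65-fold). HIST1H2BB and HIST1H2BN were both matched to the current symbol H2BC15, so that symbol is ambiguous. HIST1H2BN was not called (log2 fold change 0.46, edgeR adjusted p = 0.365). Between sides none of this list was called, with 17 of 19 above 0 in granulosa cells and 16 of 21 in cumulus cells, where 51% and 48.2% of all entries lay above 0. Both entries of the pair with the same counts are included there.

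Of 9 replacement core histones, 2 were higher in cumulus cells, 3 were lower and 4 did not pass (median -0.08). Among all entries 60.2% were called. H3F3A (H3-3A) was 1.27-fold higher in cumulus cells, and H2AFZ (H2AZ1, 1.64-fold), H2AFY2 (MACROH2A2, 2.19-fold) and H3F3B (1.30-fold) were higher in granulosa cells. Of 10 high mobility group symbols 2 were matched, and these nucleosome-binding genes went apart, HMGN2 1.52-fold higher in cumulus and HMGN3 1.49-fold higher in granulosa cells. No entry was matched by name for the 16 genes of histone mRNA processing and linker histone handling or the 33 genes of DNA replication and cell division, so the HIST1 values stand here without a measure of dividing cells.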

How the data were processed

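The authors deposited unnormalized read counts per gene entry, 1 column per library, matched to samples by title. Per the labels' protocols, SMART-Seq HT cDNA was turned into Nextera XT libraries, neither of which marks strand, and sequenced from 1 end (75 bp). STAR, DESeq2, Trimmomatic and FastQC are named in the submitters' processing notes. The aligner's genome build, the annotation and the counter are not given in the sources used, so no coordinates or sequences are printed. Linker histone genes resemble each other, and how reads matching several were counted is not given either. Neither HIST1H1C nor HIST1H1D overlaps another gene in the reference. Of the somatic linker histone entries, 1 more was fitted with the table and is not reported here.

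Tests used edgeR 4.0.16 and limma 3.58.1 in R 4.3.3, with filterByExpr (minimum count 10, minimum total 15), TMM factors, robust dispersions and the quasi-likelihood F-test, with 0.05 as the limit for the adjusted p. For side, the 8 libraries of each cell type were fitted alone, and all others used 16 libraries with 4 group means. SE is the size of the log2 fold change over the root of F. Alternatives were RLE and upper-quartile factors, no filter, DESeq2 1.42.0, limma-voom, other sets of libraries in the fit, dropping repeated entries and leaving libraries out. The fits were tested on simulated data, with changes planted only in entries above a set mean count. Entries with counts as low as those of HIST1H1A were therefore not covered. Between libraries of a group chi-square per gene was 12.9 to 78.7, so none was a repeat.

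The members and lists were chosen with earlier results of these data known. Named were all members and other linker histones, and in each other list up to 4 called entries of smallest p. Per member, the 3 named entries of highest Pearson r of log2 CPM (prior count 2) were given. These came from entries that passed the filter on low counts, with members and repeats left out. H2AFX, the matched marker genes, HIST2H2AA4 and HIST1H2AK were named outside these rules.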

Additional observations from a re-analysis of the deposited data

Results flagged for a closer look

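In groups of 4 libraries, a value was singled out by its gap to the nearest other library. The gap had to take more of the group's range than Dixon's 95% limit. With normally distributed values, chance does this in about 1 of 20 groups. CPM of low counts need not follow that distribution, so this rate is not a measure for the count below. Of 28 groups looked at (7 linker histone genes in 4 groups), 4 held such a value. H1FNT was not among the 7 genes. Contralateral cumulus library 4 held 3 of them, HIST1H1A at 7.15 CPM, HIST1H1E at 5.45 CPM and H1FOO at 92.6 CPM. Contralateral granulosa library 3 held H1FOO at 5.25 CPM. The other 3 libraries of its group had 0 counts, so any count there would have been singled out. For HIST1H1E the other contralateral cumulus libraries held 2.44, 2.87 and 2.40 CPM.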

How the results depend on the processing

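Between cell types the calls of H1FX and HIST1H1C held under every alternative run, with adjusted p up to 0.0309 and 0.00939. With each library left out, their log2 fold changes ran from 0.97 to 1.35 and from -1.79 to -1.26. HIST1H1D turned to -0.17 without cumulus library 4 and granulosa library 3 of the contralateral side, and ran from -0.10 to 0.16 with each library left out. Counts of entries called by DESeq2 in place of 0 by edgeR were 120 for side in cumulus, 1 for side in granulosa and 1 for the difference of side effects, with no member among them. On the ipsilateral side 0 to 1 members were called with each library left out, where 7251 to 8385 of all entries were called. On the contralateral side 2 in place of 1 were called by DESeq2, by limma-voom and without both named libraries, and 1 to 2 with each library left out. Of all entries on that side DESeq2 called 9304 and limma-voom 8716, against 8581 by edgeR. Counts of all entries ran from 7710 to 9304 over the alternatives, and from 7597 to 8802 with each library left out. Changes of sign, none with a call, were as follows. In the difference of side effects HIST1H1C had 0.056 by limma-voom and 0.37 without both named libraries (leave-one-out -0.60 to 0.45), and HIST1H1D 0.072 without both. On the ipsilateral side the leave-one-out ranges were -0.19 to 0.57 for H1FX, -0.37 to 0.85 for HIST1H1A and -0.29 to 0.0080 for HIST1H1D. On the contralateral side HIST1H1D had -0.21 without both (leave-one-out -0.062 to 0.45). The cause of these changes was not tested. No paired analysis was possible because the labels give no replicate numbers. Low counts limit HIST1H1A, with 10 or more counts in 5 of 16 libraries.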
